A study of Mus musculus with 18 samples.

Results

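Cytosolic ribosomal protein genes encode the proteins that join ribosomal RNA to form the large and the small subunit of the ribosome. They were taken from the expression tables by symbol, ignoring case: Rps or Rpl followed by digits and at most 1 of the letters A, X and L, together with Rplp0, Rplp1, Rplp2 and Rpsa. The mouse tables held 81 such genes among 23284 symbols, 49 of the large subunit and 32 of the small subunit. The human tables held 82 among 25408 symbols, 49 of the large subunit and 33 of the small subunit. Each had 1 entry.

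The 18 libraries formed 6 groups of 3. Memory Th2 (T helper 2) cells of BALB/c mice labelled ST2 high, ST2 being the IL-33 receptor, were kept in culture for 3 days with IL-2 plus IL-33, or, as controls, with IL-2 only. Eosinophils were kept for 3 days with amphiregulin, a growth factor of the EGF family, or without it. Whole lung came from OVA-treated BALB/c animals that were dGATA, labelled a knockout, or wild type, and OVA was given to both. The labels do not spell out the dGATA deletion, the series text names house dust mite where the lung labels name OVA, and neither says whether libraries of a group came from separate animals or cultures, so p-values measure the spread between these libraries only. The eosinophil tables carry human symbols although the labels name mouse, and they were read as human.

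Sequencing depth, read from the steps between low values and set to 1.0 in 1 control library of each pair of groups, was 0.67 to 1.34 in Th2 cells, 0.36 to 1.0 in eosinophils and 0.58 to 1.0 in lung, and small RNA entries took 12.11 to 21.38%, 20.03 to 38.42% and 4.01 to 5.14% of all FPKM. FPKM, fragments per kilobase of transcript scaled to sequencing depth, is a level per length, so levels of different genes can be set side by side. The defining markers fitted the Th2 and lung labels: 5 Th2 markers summed to 13500 to 22100 FPKM with IL-33 and 9110 to 9960 with IL-2 only, and 5 lung epithelial markers to 98400 to 121000 FPKM in dGATA and 81900 to 93400 in wild-type lung. In eosinophils, all 6 eosinophil markers summed to 1090 to 2780 FPKM with amphiregulin and 1360 to 4730 without it, while 4 neutrophil markers summed to 6710 to 13700 and 8000 to 20300. The 4 eosinophil markers listed in mouse summed to 0.309 to 2.49 FPKM in dGATA lungs, with 1 of them reaching 1 FPKM, and 11.5 to 19.6 in wild-type lungs, with 3.

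Ribosomal proteins are needed in equal numbers, and their mRNAs are among the most abundant of a growing cell. These mRNAs typically begin with a terminal oligopyrimidine (TOP) tract, a C followed by an unbroken run of C and T, through which mTORC1 signalling and the RNA-binding protein LARP1 control their translation and stability. Lymphocytes raise ribosome production when they leave quiescence, in part under the transcription factor Myc. Several ribosomal proteins also act outside the ribosome: RPL5 and RPL11 bind the p53 inhibitor MDM2 together with 5S RNA, and loss of Rpl22 in mice blocks development of most T cells.

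Start-site windows are shown for members on which the comparisons turn, to show the tract in the gene itself. Each is 50 bases, 5′ to 3′, with 25 bases before the annotated start and 25 from it, in RefSeq sequence of build GRCm38.p6; capitals mark the longest run of C and T that begins with C within 3 bases of the start. Rps27 (chr3:90213624-90213673, minus strand) differed most between Th2 cells and lung, Rps6 (chr4:86857343-86857392, minus) encodes the protein phosphorylated by S6 kinase, Rpl15 (chr14:18270962-18271011, minus) and Rpl10a (chr17:28328446-28328495, plus) fell with IL-33, and Rpl3l (chr17:24727801-24727850, plus) is the muscle paralogue of Rpl3.
Rps27: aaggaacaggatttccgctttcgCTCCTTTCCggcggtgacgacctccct
Rps6: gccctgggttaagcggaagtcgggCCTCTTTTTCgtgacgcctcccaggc
Rpl15: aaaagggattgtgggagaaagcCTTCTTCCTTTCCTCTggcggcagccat
Rpl10a: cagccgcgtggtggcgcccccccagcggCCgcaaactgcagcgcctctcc
Rpl3l: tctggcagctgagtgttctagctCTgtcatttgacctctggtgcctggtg
The run was 16 bases in Rpl15, 10 in Rps6, 9 in Rps27 and 2 in both Rpl10a and Rpl3l, so of the 2 printed members that fell with IL-33 1 had a long run and the other did not. RefSeq promoters were matched for 60 of the 81 mouse members. A run of at least 5 bases was found in 23 of the 60 (38.3%), against 11.5% of 26965 other promoters. The search covered only runs that begin within 3 bases of the annotated start, so a tract at another start would not be counted. The motif CGGAAG, searched on both strands of the 300-base promoters, was found in 41 of 60 members (68.3%) and in 17.1% of the others, and AAGATGG, which does not contain it, in 8 (13.3%) and 6.5%. A match is a description of these letters and not a binding site.

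Member mRNA took a larger share of all FPKM in the Th2 cells than in the lung. The share was 10.64, 10.19 and 10.04% with IL-33 (mean 10.29 ± 0.312%, SD, n = 3), against 10.09, 10.56 and 10.32% with IL-2 only (10.32 ± 0.235%, n = 3). In lung it was 4.84, 5.47 and 5.45% in dGATA (5.25 ± 0.358%, n = 3), against 5.42, 4.58 and 4.96% in wild type (4.99 ± 0.421%, n = 3). In eosinophils it was 5.9, 5.09 and 3.0% with amphiregulin (4.66 ± 1.5%, n = 3), against 5.52, 3.92 and 3.71% without it (4.38 ± 0.99%, n = 3). Within each of these 3 settings the groups overlapped, whereas all 6 Th2 libraries lay above all 6 lung libraries. The large subunit held 53.23 to 54.5% of member FPKM in the 12 mouse libraries and 53.34 to 57.42% in the 6 human libraries.

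**Figure D1:**
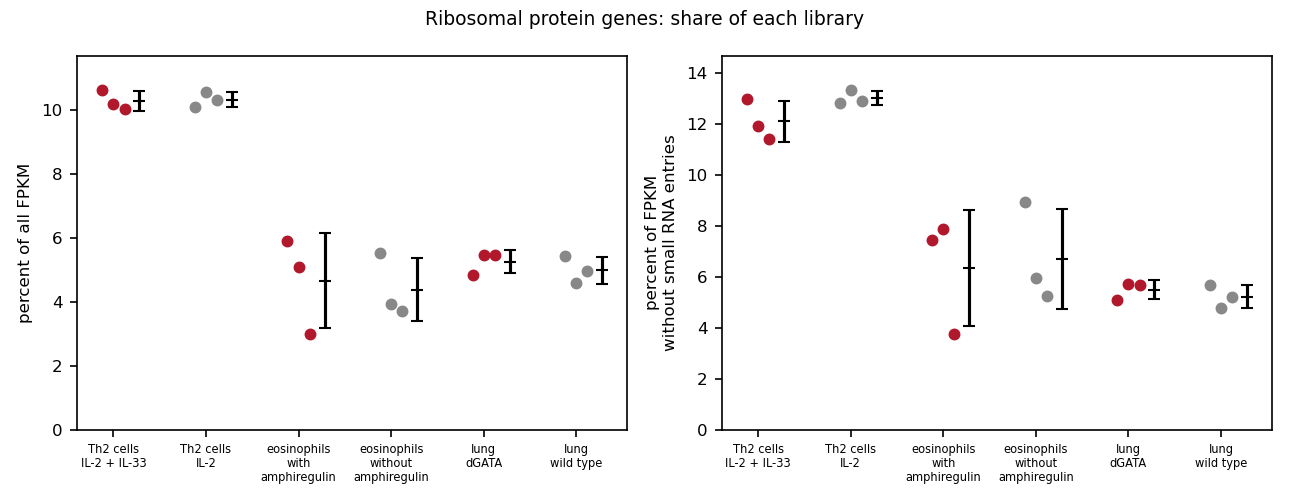
Share of FPKM taken by ribosomal protein genes in each library, as percent of all FPKM (left) and of FPKM without small RNA entries (right). Points are libraries, red for IL-33, amphiregulin and dGATA and grey for their controls, and bars give the mean ± SD of 3. The Th2 libraries sit between 10.04 and 10.64% of all FPKM and the lung libraries between 4.58 and 5.47%, while the groups of each pair overlap in the left panel.

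Without small RNA entries the share was 12.12 ± 0.804% with IL-33 and 13.04 ± 0.289% with IL-2 only (SD, n = 3 each), with the 6 libraries overlapping by 1 value: 13.0, 11.95 and 11.42% with IL-33 against 12.83, 13.37 and 12.92%.

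Levels differed between members over several orders of magnitude, and the order of the members was shared by the mouse groups. The highest in Th2 cells was Rpl41, which encodes the shortest ribosomal protein, at 3048 ± 268 FPKM with IL-33 and 2812 ± 126 with IL-2 only (SD, n = 3 each). The stalk gene Rplp1 followed at 2347 ± 188 and 2496 ± 160 FPKM, and Rps20 at 1865 ± 178 and 1895 ± 57.0. These neighbours in the order were further apart than their spread. In lung the order of the first 2 was turned round: Rplp1 stood at 1625 ± 236 FPKM in dGATA and 1549 ± 106 in wild type, and Rpl41 at 1540 ± 313 and 1331 ± 156, followed by Rps15 at 1178 ± 138 and 1009 ± 74.8. The first 2 lay within their spread in dGATA lungs. Across the 81 members the Spearman correlation of mean levels was 0.99 between IL-33 and IL-2 only, 0.997 between dGATA and wild type, and 0.943 between IL-33 and wild-type lung; the points share gene lengths and copies in the genome.

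The 10 highest members held at most 34.3% of member FPKM in Th2 libraries, 35.2 to 36.2% in lung and 26.8 to 32.0% in eosinophils. In eosinophils the highest by mean was RPLP1, with 1286, 1038 and 865.4 FPKM with amphiregulin and 1630, 701.1 and 1267 without it. The order in eosinophils differed from that in mouse cells, with a correlation of 0.316 to Th2 cells and 0.258 to wild-type lung over 81 shared symbols, in tables of different species and annotation.

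At the low end, Rpl10l, a testis paralogue of Rpl10, was listed at 0 in all 12 mouse libraries. Rpl3l was listed at 0 in all 6 Th2 libraries. It had 0.7235, 0.1028 and 1.272 FPKM in dGATA lungs and 2.817, 1.154 and 0.6771 in wild-type lungs, beside a summed level of 5 cardiac and skeletal muscle markers of 173 to 548 and 286 to 580 FPKM, whose part in it was not tested. Rpl39l, a paralogue of Rpl39, had 0.4665, 0.0 and 0.5061 FPKM with IL-33, against 0.1248, 0.2423 and 0.1867 with IL-2 only, and at most 0.2406 FPKM in any lung library. Rps4l, the paralogue of Rps4x, was not analysed here. Rpl26, an essential large-subunit gene, was listed at or below 0.000282 FPKM in every mouse library, although its transcript is found in every cell type, and a value of this kind can be a failed estimate. Likewise RPL39 stood at or below 0.00937 FPKM in 5 human libraries and at 47.2 in library 3 without amphiregulin.

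Low levels went with near-identical copies in the genome. Each coding sequence in GENCODE vM21 (build GRCm38), matched for 80 of 81 members, was split into windows of 50 bases, and the other annotated genes that hold one of them were counted. Of the 80, 5 shared a window with at least 50 pseudogenes: Rpl7a with 121, Rpl21 with 81, Rpl29 with 81, Rps2 with 71 and Rpl17 with 50. Their median level was 14.1 FPKM in Th2 cells and 8.07 in lung, against 799 and 328 FPKM for the 44 members with 1 to 9 such pseudogenes and 426 and 194 for the 28 with 10 to 49. The tissue-restricted Rpl3l and Rpl39l were among the 3 members with none. The labels and notes used here do not say how reads that fit several copies were assigned, so levels of members with many copies are uncertain. The mouse tables also listed 6 copies under pseudogene symbols, of which Rplp2-ps1 reached 691.9 FPKM with IL-33 and 852.5 with IL-2 only, close to Rplp2 itself at 790.4 and 967.4. In human, RPL13AP5 averaged 976.6 FPKM with amphiregulin and 1104 without it, against 362.7 and 378.5 FPKM for RPL13A.

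**Figure D2:**
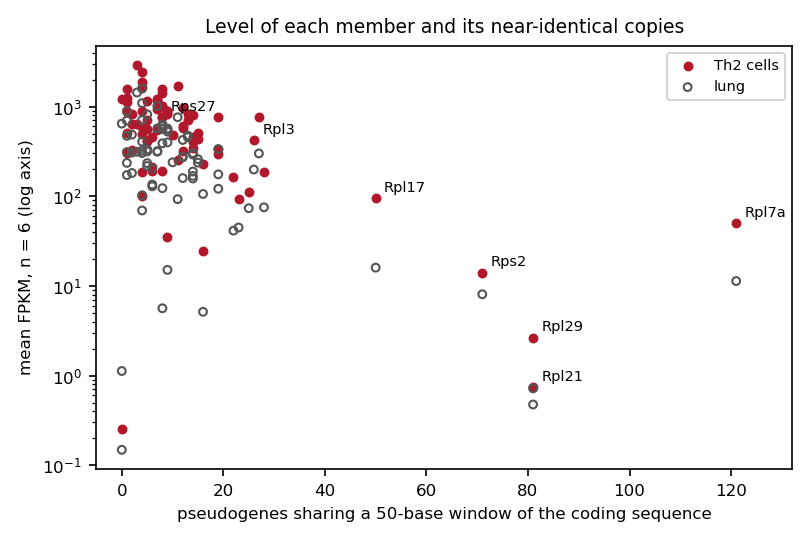
Mean FPKM (log axis) of each mouse member in the 6 Th2 libraries (filled red) and the 6 lung libraries (open grey) against the number of pseudogenes that share a 50-base window of its coding sequence; values under 0.1 FPKM are not drawn. The 5 members with at least 50 such pseudogenes, Rpl17, Rps2, Rpl29, Rpl21 and Rpl7a, all lie below 100 FPKM.

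The first comparison asked what IL-33 changes in the Th2 cells. Of the 81 members, 76 passed the filter of at least 1 FPKM in at least 3 libraries, 0 were called higher and 7 were called lower at an adjusted p below 0.05 (limma on log2(FPKM + 1), adjusted over all 10296 genes tested; 15 members had an unadjusted p below 0.05). They included Rpl30, Rpl3, Rpl8, Rpl36, Rpl10a and Rpl15, with log2 differences from -0.50 to -0.31. Over all genes tested 16.3% were called higher and 25.7% lower, so the members' 0.0% and 9.2% lay below the background in both directions. The members' median difference was log2 -0.15, against -0.11 over all genes tested, and 61 of 76 lay below 0, against 6239 of 10296. Those 6 belong to the large subunit, of which 44 members were tested.

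Rpl3, which encodes a protein near the peptidyl transferase centre (chr15:80077781-80083406, mm10), had 372.2, 334.9 and 356.1 FPKM with IL-33, against 467.4, 493.5 and 509.2 with IL-2 only. All 3 IL-33 libraries lay below all 3 controls, and Rpl3 fell 1.38-fold (log2 -0.47, SE 0.0897, adjusted p = 0.0069, limma). Rpl30 (chr15:34440508-34443276), whose yeast counterpart binds its own transcript, had 20.27, 20.61 and 20.26 FPKM, against 26.46, 30.26 and 31.06. It fell 1.41-fold (log2 -0.50, SE 0.0844, adjusted p = 0.00424, limma), with 16 pseudogenes sharing a window. Rpl36, a small protein on the surface of the large subunit, had 516.0, 509.0 and 536.9 FPKM, against 644.7, 721.6 and 700.5. Again the groups did not overlap, with log2 -0.40 (SE 0.093, adjusted p = 0.0137, limma).

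Rpl8 also encodes a protein of the catalytic core, and it shares only 8.7% of its windows with any other gene. It had 1003, 1065 and 1129 FPKM with IL-33, against 1344, 1416 and 1499 with IL-2 only (log2 -0.41, SE 0.109, adjusted p = 0.0214, limma). Rpl15, a gene mutated in some patients with Diamond-Blackfan anaemia and here named after its values were seen, had 86.62, 80.42 and 84.11 FPKM, against 101.1, 104.4 and 105.6 (log2 -0.31, adjusted p = 0.0146, limma). Rpl10a stood at 635.1 ± 40.2 FPKM with IL-33, against 792.0 ± 36.8 with IL-2 only (SD, n = 3 each), with an adjusted p of 0.0384 (limma). In each of these 6, all 3 IL-33 libraries were below all 3 controls.

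**Figure D3:**
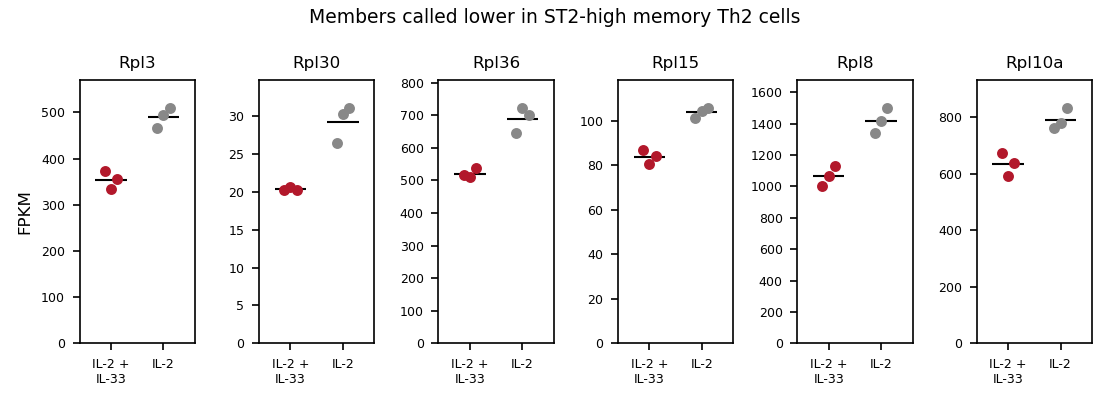
FPKM of 6 members called lower in ST2-high memory Th2 cells, in the 3 libraries with IL-2 plus IL-33 (red) and the 3 with IL-2 only (grey); lines are means and each axis starts at 0. In every panel the IL-33 libraries lie below the controls, for Rpl3 at 334.9 to 372.2 against 467.4 to 509.2 FPKM.

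Of these calls, Rpl3 kept its call under all 16 alternatives and Rpl30 under 15, losing it in the fit over 12 mouse libraries (adjusted p = 0.154, limma). Rpl10a kept it under 6. The count of members called lower was 2 after median-of-ratios scaling and 3 after rescaling to a common sum (TPM), with 0 called higher in both. Median-of-ratios scaling moved the median of all genes tested to -0.003 and that of the members to -0.039, a distance of -0.036 from all genes there and of -0.049 in the values as deposited; without IL-33 library 6 this distance was 0.036. Over all genes, calls were higher in 53.5% with median-of-ratios scaling and 54.4% after rescaling to a common sum, against 38.8% in the values as deposited.

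The other named members did not pass. Among genes of the small subunit, Rps6 had 475.7, 419.5 and 389.9 FPKM with IL-33, against 472.9, 499.2 and 485.7 with IL-2 only (log2 -0.19, adjusted p = 0.183, limma), so the groups overlapped by 1 library. Rps19, mutated in Diamond-Blackfan anaemia, had 406.0, 374.6 and 409.4 against 446.9, 498.5 and 486.5 FPKM (log2 -0.27, adjusted p = 0.0545, limma), without overlap. It was called lower in the fit over 12 mouse libraries and after rescaling without small RNA entries. Rps3 (log2 0.01), Rps14 (0.04), Rps4x (0.05), Rpsa, the laminin receptor precursor (-0.14), and Rps27a, a fusion with ubiquitin (-0.24), had adjusted p from 0.111 to 0.937 (limma). Rps27 had 890.1, 812.9 and 728.2 FPKM against 515.2, 814.0 and 809.3, the highest difference among members (log2 0.21, adjusted p = 0.413, limma) with 1 low control library, and its p53-induced paralogue Rps27l averaged 182.2 ± 19.0 against 190.2 ± 6.9 FPKM.

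Among genes of the large subunit, neither of the MDM2-binding pair was called. Rpl5 averaged 411.7 ± 40.9 FPKM with IL-33 and 400.7 ± 10.7 with IL-2 only (log2 0.03; SD, n = 3 each). Rpl11 averaged 455.0 ± 24.7 and 515.6 ± 17.4 FPKM (log2 -0.18, adjusted p = 0.144, limma; SD, n = 3 each), and its groups did not overlap. Rpl22 averaged 94.86 ± 8.2 and 106.7 ± 9.31 FPKM (log2 -0.17), Rpl38, which in mice is needed for translation of some Hox mRNAs, 1049 ± 149 and 1260 ± 82.6 (log2 -0.27), and Rpl13a 433.5 ± 35.8 and 400.9 ± 17.2 (log2 0.11). Rpl10 and Rpl39 had log2 differences of -0.01 and 0.12. Of the stalk, which recruits elongation factors, Rplp0 and Rplp1 had log2 0.03 and -0.09, while Rplp2 had 707.7, 918.5 and 745.1 FPKM against 931.7, 998.5 and 972.0 (log2 -0.30, adjusted p = 0.0963, limma) and did not overlap. In all, 24 of 76 members had groups that did not overlap, 23 of them lower, beside the background of 16.3% called higher and 25.7% called lower and 56.7% of all genes tested without overlap.

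Among the lists of genes that build or drive the ribosome, more genes were called lower than higher in ribosome biogenesis, RNA polymerase I, initiation and the mitochondrial ribosome. Of 25 ribosome biogenesis genes tested, 19 fell and 1 rose (median log2 -0.51). Ncl, which encodes nucleolin, had a mean of 95.98 FPKM with IL-33 and 195.4 with IL-2 only (log2 -1.03, SE 0.134, adjusted p = 0.00144, limma), and Fbl, the rRNA methyltransferase fibrillarin, 48.54 and 83.72 (log2 -0.78, adjusted p = 0.00125, limma). Pes1 (log2 -0.51) and Wdr43 (-0.64) also fell. Of 13 RNA polymerase I genes, 6 fell, led by Taf1a, and of 76 mitochondrial ribosome genes, 38 fell and 2 rose, with Mrpl30 at 60.82 ± 5.5 and 115.4 ± 7.41 FPKM (SD, n = 3 each).

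Of 19 translation initiation genes, 8 fell and 0 rose, among them Eif5a at a mean of 431.9 FPKM with IL-33 and 763.7 with IL-2 only (log2 -0.83, adjusted p = 0.00201, limma). Of 15 genes of elongation and other TOP mRNAs, 4 fell, including Npm1 (log2 -0.75) and Eef1d (-0.44), and 1, Tpt1, rose (3868 and 2587 FPKM, log2 0.58, adjusted p = 0.0104, limma). Of 21 mTOR and Myc network genes, 7 fell and 1 rose: Ddit4, an mTORC1 inhibitor, at 62.62 and 28.15 FPKM (log2 1.14, adjusted p = 0.00168, limma), with Mxd1 (log2 -1.47), Max (-1.25) and Larp1 (-0.64) lower. Of 9 snoRNA host genes 6 fell and 1 rose, with Gas5, itself a TOP RNA, at log2 -0.67. Of 20 cell cycle genes 3 fell and 1 rose, and of 13 p53 target genes 2 fell and 2 rose. Of the 6 ribosome-associated genes outside the symbol rule, 1, Rpl7l1, fell (log2 -0.46, adjusted p = 0.0138, limma), while Fau had log2 0.27 and Gnb2l1 0.10. Over all genes tested 25.7% were lower and 16.3% higher, so the 4 of 15 elongation and TOP genes lay near the background and the 3 of 20 cell cycle genes below it.

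These counts depended on the scaling. Rescaled to a common sum, 15.4% of all genes were lower and 18.4% higher, and the genes lower were 13 in biogenesis, 2 in RNA polymerase I, 21 in the mitochondrial ribosome, 5 in initiation, 2 in elongation and TOP, 4 in the mTOR and Myc network, 3 among snoRNA hosts and 0 among p53 targets. With median-of-ratios scaling 18.2% of all genes were lower and 20.9% higher, and the list counts were 16, 3, 27, 6, 2, 4, 5 and 1 in the same order. Genes higher numbered 3 and 4 among p53 targets under these scalings, and at most 2 in each of the other lists. Without libraries 5 and 6, which correlated at 0.314 after removing group means, 36.4% of all genes tested were lower and 19.6% higher. In that fit 7 members were lower, and biogenesis held 23 genes lower, initiation 12 and the mitochondrial ribosome 51.

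Several marker sums did not overlap between the groups. With IL-33 and with IL-2 only they were 1620 to 1730 and 964 to 1170 FPKM for T cell markers, 5.73 to 7.98 and 0.62 to 1.73 for eosinophil, 0.0585 to 3.77 and 7.79 to 13.5 for erythroid, 13.1 to 19.6 and 23.6 to 41.7 for endothelial, 2.94 to 3.74 and 6.02 to 9.92 for lung epithelial and 11.3 to 16.9 and 18.3 to 22.7 for muscle markers, and the Th2 marker sums given above did not overlap either. In each group only 1 of the 4 eosinophil, 3 erythroid, 3 endothelial and 5 muscle markers reached 1 FPKM in a library. Of the 5 lung epithelial markers 1 did with IL-33 and 2 with IL-2 only. Sums that rest on so few genes do not by themselves show such cells. The small RNA share was 12.11 to 18.18% and 20.17 to 21.38%. The part of these in the members' and lists' values was not tested, and in bulk samples fewer cells of a type and less RNA per cell cannot be told apart.

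Small RNA entries that lay within the loci of the members were read separately. In Th2 cells 33 small RNA entries lay in 22 member loci, and 23 were tested, of which 1 was called higher and 2 lower. Snora21 within Rpl23 averaged 66.49 FPKM with IL-33 and 5.354 with IL-2 only (adjusted p = 0.0302, limma), whereas Rpl23 itself averaged 679.1 ± 38.1 and 609.8 ± 21.5 FPKM (SD, n = 3 each; not called). Snord16a within Rpl4 averaged 551.8 and 1336 FPKM (log2 -1.45, adjusted p = 0.0475, limma). Snora69 within Rpl39, the other entry called lower, was listed at 0 with IL-33 and averaged 23.7 FPKM in controls, and it passed the filter only through the control libraries, which fixed its direction. Rpl4 and Rpl39 themselves had log2 differences of -0.06 and 0.12. Libraries of polyadenylated RNA are not made to measure such short RNAs.

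The second comparison asked what amphiregulin changes in eosinophils. Of 82 members 79 were tested, and 0 were called higher and 0 lower (limma), with 0 at an unadjusted p below 0.05, beside a background of 0.0317% called higher and 0.174% lower over 12616 genes. The titles number the libraries 2, 3 and 4 in both groups and do not say that equal numbers are pairs. After removing group means, same-numbered libraries correlated at 0.399, 0.356 and 0.669. Unlike-numbered libraries correlated at 0.28 and 0.308 between numbers 2 and 3, and at -0.505 to -0.427 with number 4. The main fit left the number out. For the block fit and the differences per pair, libraries of 1 number were taken as a pair, which is uncertain for 2 and 3. With the number as a block there were also 0 and 0, with a lowest adjusted p of 0.531 (limma), beside 0.531% called higher and 0.587% lower. The members' median was log2 -0.14, against 0.02 over all genes, and it turned to 0.07 after rescaling to a common sum, where all genes stood at 0.21.

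Pairs formed by number went in opposite directions. With amphiregulin, 10 of 79 members were higher in pair 2, 69 in pair 3 and 1 in pair 4, and the median differences were log2 -0.33, 0.50 and -0.59, against 0.06, 0.04 and -0.01 over all genes. Without library 4 with amphiregulin the unblocked median was 0.277 and without library 2 without it 0.129, and it ran from -0.385 to -0.179 without each of the others. The blocked median was -0.05 without pair 2, -0.45 without pair 3 and 0.08 without pair 4. Library 4 with amphiregulin had the lowest relative depth, 0.36, and the lowest member share, 3.0%. Summed endothelial markers did not overlap, at 16.6 to 21.6 FPKM with amphiregulin and 24.9 to 31.3 without it. Of the 3 endothelial markers, 2 reached 1 FPKM in a library with amphiregulin and 1 without it. T cell markers (74.0 to 169 and 130.0 to 281 FPKM) and erythroid markers (972 to 27700 and 1580 to 49900) did overlap, and their part in the members' values was not tested.

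Among the 3 members with the highest difference were RPS27L and RPLP0, and the 3 with the lowest were RPL30, RPS12 and RPS29, none of them called. RPS27L had 33.64, 21.5 and 15.38 FPKM with amphiregulin, against 24.42, 14.68 and 16.28 without it in pairs 2, 3 and 4 (log2 0.30, SE 0.343, adjusted p = 0.999, limma). RPL30 had 556.9, 686.3 and 264.2 FPKM, against 812.6, 698.8 and 489.3 (log2 -0.49, SE 0.458, adjusted p = 0.999, limma), and it was lower in every pair. RPS6 had 822.4, 972.4 and 306.1 against 978.8, 734.2 and 479.5 FPKM, higher in pair 3 only. RPLP0 had 559.1, 801.6 and 169.9 FPKM, against 506.6, 432.8 and 206.3 (log2 0.25, SE 0.655).

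The remaining named members lay between log2 -0.37 (RPLP2) and 0.02 (RPSA). Standard errors in the fit without the block were 0.343 to 0.655 over all those tested, and within these errors no direction can be given. Errors of the block fit are not reported here. RPL11 had log2 -0.07, RPL5 -0.09, RPL10 -0.22, RPL13A -0.15, RPL22 -0.14 and RPL38 -0.09, and RPS19 -0.21, RPS14 -0.20, RPS3 -0.08, RPS4X -0.08 and RPS27A -0.34. The paralogues RPL3L and RPL10L were listed at 0, and RPL39L had 12.17, 12.68 and 4.237 FPKM against 14.11, 11.03 and 6.48. None of the 10 related gene lists held a called gene in either fit. Of 57 small RNA entries within 28 member loci 15 were tested, and 1, SNORA27 within RPL21, was called lower. It was listed at 0 with amphiregulin and averaged 63.05 FPKM without it, and it passed the filter only through the libraries without amphiregulin, which fixed its direction. BYSL, a small-subunit assembly factor, had the smallest p among biogenesis genes (log2 0.89, SE 0.378, adjusted p = 0.999, limma).

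The third comparison asked how dGATA lungs differ from wild-type lungs after OVA. Of 81 members 76 were tested, and 0 were called higher and 0 lower (limma; 1 had an unadjusted p below 0.05, lowest adjusted p 0.704), beside 0.0437% called higher and 0.0510% called lower over 13727 genes. The members leaned one way all the same: 75 of 76 had a difference above 0, against 40.9% of all genes tested, with medians of log2 0.19 and -0.03. Rescaled to a common sum the members' median was 0.09 with 62 of 76 above 0, where all genes stood at -0.13. With median-of-ratios scaling the members' median was 0.23, against 0.005 over all genes. Leaving out single libraries it was 0.119 without wild-type library 2 and 0.12 without dGATA library 2, and otherwise 0.157 to 0.272, with 68 to 75 members above 0. The members come from the same libraries and are not independent observations.

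Only 3 members had groups that did not overlap, or 3.9% of those tested, against 14.1% of all genes. Rpl35a, whose value was seen before it was named, had 131.8, 128.7 and 132.9 FPKM in dGATA lungs, against 118.7, 102.3 and 113.2 in wild type (log2 0.24, SE 0.0902, adjusted p = 0.704, limma). Rps19 had 248.0, 257.8 and 261.8 against 235.3, 205.8 and 214.2 FPKM (log2 0.23, adjusted p = 0.726, limma), and Rpl22 75.31, 71.19 and 72.86 against 69.42, 59.28 and 68.55 (log2 0.15, adjusted p = 0.797, limma). All 3 were higher in every dGATA library, and none was called.

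The highest differences were those of Rpl30 (6.178 ± 1.03 FPKM in dGATA, 4.101 ± 1.89 in wild type, log2 0.56, SE 0.311), Rps21 (205.9 ± 42.1 and 157.5 ± 14.4, log2 0.37) and Rps2 (9.338 ± 3.76 and 6.804 ± 1.79, log2 0.35; SD, n = 3 each). The lowest were Rpl3l (log2 -0.56, SE 0.381), Rps26 (0.02) and Rps27l (0.03). None was called. Rps6 had 159.4, 197.4 and 187.6 FPKM in dGATA lungs, against 172.4, 137.3 and 158.7 in wild type, and Rplp0 242.7, 388.9 and 333.9 against 344.2, 284.6 and 287.0. For Rps6, wild-type library 1 lay in the range of the dGATA lungs, and for Rplp0 all 3 wild-type libraries did. Wild-type library 1 alone did so for Rpl5 (191.0, 196.8 and 200.6 against 195.1, 163.7 and 185.3 FPKM) and Rpl11 (226.5, 278.2 and 263.6 against 240.8, 201.2 and 224.5).

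Other values moved with the groups. Summed lung epithelial markers did not overlap between dGATA and wild-type lungs (98400 to 121000 and 81900 to 93400 FPKM), nor did Th2 cell markers (4.12 to 8.93 and 9.5 to 11.5) or the eosinophil markers given above. Fibroblast markers (181 to 415 and 403 to 530 FPKM) and erythroid markers (194 to 9160 and 112 to 1010) overlapped; their part in the members' values was not tested. None of the 10 related gene lists held a called gene. Their medians lay between log2 -0.08 (RNA polymerase I) and 0.10 (ribosome-associated genes outside the rule), with 0.07 for the mitochondrial ribosome and 0.01 for biogenesis genes. The 20 tested small RNA entries within members included 0 called.

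**Figure D4:**
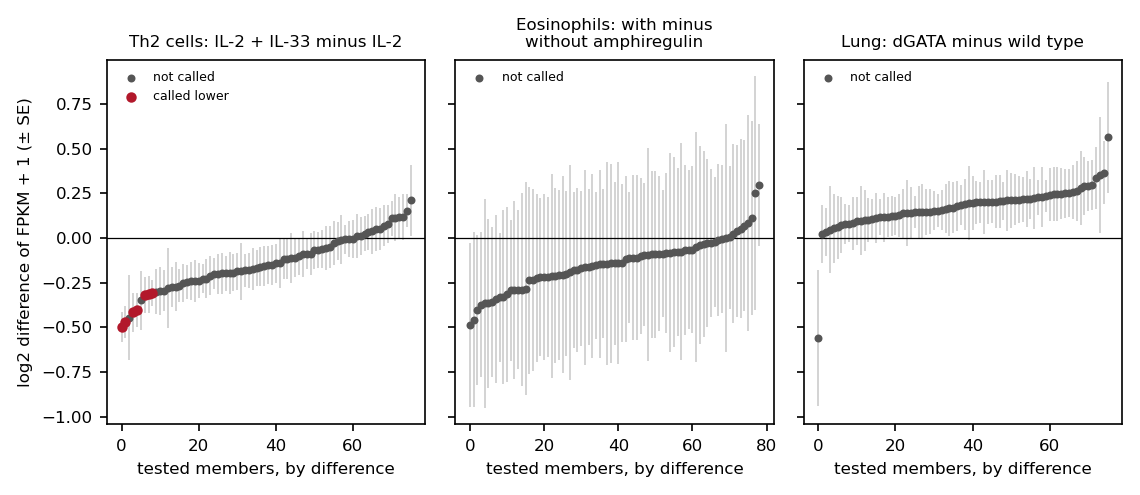
Log2 difference (± SE) of each tested member, ordered within its panel, for Th2 cells (IL-33 minus IL-2 only), eosinophils (with minus without amphiregulin) and lung (dGATA minus wild type). The 7 members called lower in Th2 cells are red; the medians are -0.15, -0.14 and 0.19, and the standard errors are widest in eosinophils.

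The last comparison set all 6 Th2 libraries against all 6 lung libraries. It contrasts cultured T cells with whole tissue, so cell type, culture and any difference in handling cannot be told apart. Of 77 members tested 76 were called higher in Th2 cells and 1 lower, beside 34.0% called higher and 54.5% called lower over 14148 genes (limma). Among the 76, Rpl29 (1.781 to 4.516 FPKM in Th2 cells, 0.2881 to 0.6636 in lung) passed the filter only through Th2 libraries. Its direction was thus fixed by the filter, and its call is not a test result. The members' median was log2 1.02, a 2.03-fold difference, against log2 -0.38 over all genes, and the quartiles of the members were 0.75 and 1.18. The large subunit had a median of 1.04 (44 of 45 higher) and the small subunit 0.97 (32 of 32). Leaving out single libraries gave 75 to 76 higher.

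Rps27 stood far from the rest. It encodes a zinc finger protein of the small subunit (chr3:90212667-90213648, mm10), and it had 890.1, 812.9, 728.2, 515.2, 814.0 and 809.3 FPKM in Th2 cells, against 3.771, 7.121, 6.438, 5.001, 4.44 and 7.014 in lung. The difference was log2 6.85 (SE 0.166, adjusted p = 6.26e-12, limma), beyond the second of the list, Rpl17, at 2.52. All of its 50-base windows also occur in other genes, among them 8 pseudogenes, so how reads were assigned to it is uncertain. Its paralogue Rps27l averaged 186.2 ± 13.5 FPKM in Th2 cells and 102.6 ± 11.6 in lung (SD, n = 6 each; log2 0.86).

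After Rps27 came Rpl17 (95.37 ± 8.78 and 15.99 ± 3.44 FPKM), Rpl30 (24.82 ± 5.1 and 5.14 ± 1.77), Rpl7a (49.84 ± 7.6 and 11.34 ± 2.19), Rps12 (162.6 ± 18.7 and 41.37 ± 6.42) and Rplp0 (931.8 ± 32.9 and 313.6 ± 52.2; SD, n = 6 each), with log2 differences of 2.52, 2.12, 2.05, 1.95 and 1.58. Rpl17, Rpl7a, Rps12 and Rpl30 share windows with 50, 121, 22 and 16 pseudogenes, and Rplp0 with 7. The smallest difference among those higher was that of Rps29, at 1189 ± 117 FPKM in Th2 cells and 1015 ± 140 in lung, where the groups overlapped (log2 0.23, adjusted p = 0.0388, limma). The one member lower was Rpl3l, listed at 0 in every Th2 library and at 0.1028 to 2.817 FPKM in lung. It passed the filter only through 3 lung libraries, so its direction was fixed by the filter and its call is not a test result; it was not called with a filter of 5 FPKM, or without dGATA library 3, wild-type library 1 or wild-type library 2.

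Among members with few copies the difference was of like size. Rps3, with 8.1% of its windows shared, had 506.9 ± 37.9 FPKM in Th2 cells and 235.5 ± 33.4 in lung (log2 1.11), Rpl8 1243 ± 204 and 698.1 ± 62.0 (log2 0.82) and Rpl4, with 20.3% shared, 1112 ± 59.4 and 472.6 ± 50.1 (log2 1.24; SD, n = 6 each). Each was called higher (adjusted p from 3.89e-08 to 1.36e-06, limma), and in each all 6 Th2 libraries lay above all 6 lung libraries. The genes of known extra roles lay between log2 0.49 and 1.58: Rpl38 at 0.49, Rpl10 0.50, Rpl22 0.53, Rplp1 0.61, Rpl13a 0.84, Rps19 0.88, Rpl11 1.02, Rps14 1.05, Rpl3 1.07, Rpl5 1.1, Rps27a 1.13, Rps4x 1.17, Rpsa 1.35, Rpl39 1.39, Rps6 1.44, Rplp2 1.5 and Rplp0 1.58. Within the stalk, Rplp1 thus differed 1.53-fold and Rplp0 and Rplp2 3.0-fold and 2.83-fold.

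**Figure D5:**
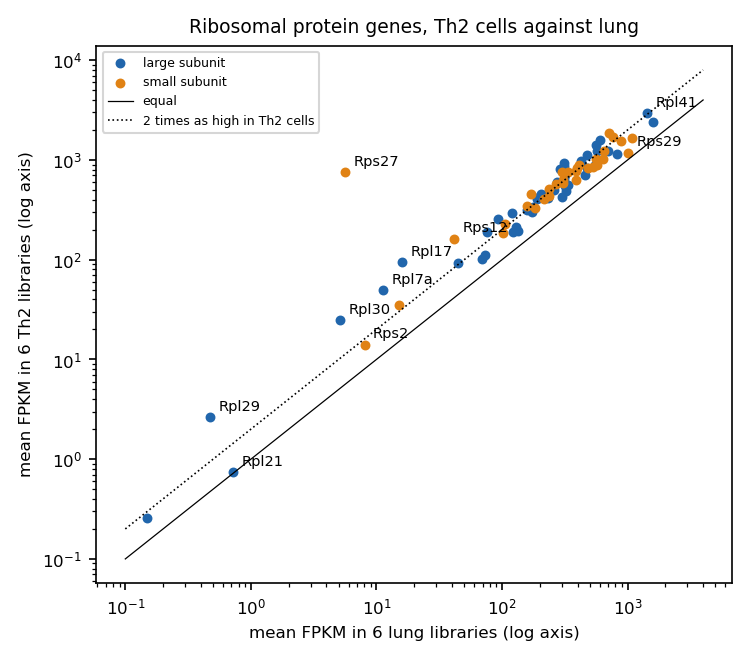
Mean FPKM of mouse ribosomal protein genes in the 6 Th2 libraries against the 6 lung libraries, both on log axes, coloured by subunit; members under 0.1 FPKM in either are not drawn. Most members follow the dotted line of a 2-fold difference, near the median of 2.03, while Rps27 lies far above it at 761.6 and 5.631 FPKM.

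Most related lists held more genes called higher in Th2 cells than lower, beside the background of 34.0% higher and 54.5% lower; the mTOR and Myc network and the p53 targets were split. All 25 biogenesis genes were called higher (median log2 2.12), with Rrp12 at a mean of 26.8 FPKM in Th2 cells and 2.194 in lung and Nop58 at 129.6 and 14.91, and so were all 13 RNA polymerase I genes (1.23), all 15 elongation and TOP genes (0.95) and all 6 ribosome-associated genes outside the rule (1.16). Of 19 initiation genes 18 were higher and 1 lower, of 20 cell cycle genes 20 higher, of 9 snoRNA host genes 8 higher, and of 76 mitochondrial ribosome genes 50 higher and 5 lower (median 0.52). Of 21 mTOR and Myc network genes 9 were higher and 5 lower: Myc had a mean of 157.9 FPKM in Th2 cells and 6.375 in lung (log2 4.26, SE 0.238, adjusted p = 9.16e-09, limma) and Larp1 59.87 and 16.43, while Mxd4, a Myc antagonist, had 7.335 and 92.72 and Tsc2 7.409 and 18.7. Of 13 p53 target genes 7 were higher and 6 lower. The Th2 and lung groups that enter here also enter the comparisons above, so these results are not independent of them.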

How the data were processed

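The deposited values are FPKM per gene; per the submitters' processing notes the authors used Bowtie 0.12.8, TopHat 1.3.2, Cufflinks 2.0.2 and mm10, in an order not given in the sources used here, and the labels name a stranded mRNA kit. The files hold no counts and total depth is unknown, so no count model was used. FPKM was summed per symbol. The eosinophil tables hold human symbols, with no build given, and 140 Y-linked and X-inactivation symbols were left out. Values were transformed to log2(FPKM + 1), which understates changes of low genes, and fitted with limma 3.58.1 (R 4.3.3, trend) after keeping genes of at least 1 FPKM in 3 libraries; p-values were Benjamini-Hochberg adjusted over all genes tested. The fit was tested on simulated data. The main eosinophil fit used no pairing, and the eosinophil differences, errors and p-values per gene are from it. Pairs by number, which the titles do not state (correlations 0.399, 0.356, 0.669), entered only the replicate block and the differences per pair. Same-numbered lung libraries correlated at -0.286, -0.116 and -0.243.

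Members, lists and tests were chosen with earlier results of these data known. Named were, per comparison, up to 6 highest and 6 lowest called members without overlap (with none called, 3 and 3), members of known role, paralogues, the 3 highest and 3 lowest levels per group, and up to 4 genes with the smallest p per list; others are said to be chosen after their values were seen. Alternatives were pseudocounts of 0.1 and 5, no filter or 5 FPKM, other scalings, the highest entry per symbol, leaving out libraries, a replicate block and a fit over 12 mouse libraries; the eosinophil block with other scalings or without a pair was added after seeing the data. Set tests were not run. Some members and related genes that the naming rule covers are not reported here.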

Additional observations from a re-analysis of the deposited data

How the results depend on the processing

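In Th2 cells the count of members lower with IL-33, 7 as reported, was 2 with median-of-ratios scaling (median -0.039), 3 after rescaling to a common sum and 4 without a filter on low values; without single libraries it ran from 2 to 6 (2 without IL-2 library 3, 3 without IL-33 library 4, 4 without IL-2 library 1 or 5), and the cause was not tested. It was 10 without small RNA entries, 5 in the fit over 12 mouse libraries, and 7 under the remaining alternatives, 0 being called higher under all 16. In Th2 cells against lung the median moved to 1.282 without small RNA entries, and the count lower, 1, was 0 with a filter of 5 FPKM, by the construction of that filter, and 0 to 1 without single libraries. In eosinophils and lung no member was called under any alternative. With the replicate block the eosinophil counts were 0 higher and 0 lower (median -0.141), as without it. In lung, where same-numbered libraries correlated below 0, the block also gave 0 and 0 (median 0.187). Of 1956 values of named members under alternatives, 1919 kept their side of the threshold, 33 in Th2 cells lost a call and 4 gained one; no called value changed sign. Total depth is unknown, so no interval from counting could be given, and 3 libraries a group limit what could be called.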
